A study of Mus musculus with 2 samples.

Results

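The ribosomal S6 kinases are the 8 mouse genes Rps6ka1, Rps6ka2, Rps6ka3, Rps6ka4, Rps6ka5, Rps6ka6, Rps6kb1 and Rps6kb2. The family was taken as every probe set that the array annotation gives to 1 of these symbols. This named 9 probe sets of 4 genes, Rps6ka3, Rps6ka5, Rps6ka6 and Rps6kb2, out of 45037 probe sets and 18193 named genes on each array. Rps6ka1, Rps6ka2, Rps6ka4 and Rps6kb1 were not analysed here. The family was chosen by gene name with earlier results of these arrays known, and selected on the low signal of Rps6ka6 in CMT-93-PM1, so all values below are descriptions.

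The arrays compared CMT-93-PM1, cells grown out of lung tumours, with CMT-93, the rectal carcinoma line of C57BL mice from which they came. For CMT-93-PM1, CMT-93 cells went into the tail veins of female C57BL/6 mice aged 6 weeks. Tumours seen in the lungs 8 weeks later were put into primary culture. CMT-93 cells were the uninjected line, and both cultures grew in the same medium with 10% fetal bovine serum. Neither line carried a transgene or deletion by its labels, and the sources used here do not give the number of mice and tumours behind CMT-93-PM1. Each line was measured on 1 Affymetrix array, so no difference has a replicate error, a test or a p-value. Line, culture, labelling and hybridization cannot be told apart. In a culture, fewer expressing cells and less RNA per cell cannot be told apart either.

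The p90 ribosomal S6 kinases, or RSKs, are encoded by Rps6ka1, Rps6ka2, Rps6ka3 and Rps6ka6. They are serine/threonine kinases at the end of the Ras-ERK cascade. Each carries an N-terminal kinase domain that phosphorylates substrates and a C-terminal one that ERK activates, and PDK1 completes activation of most of them. The mitogen- and stress-activated kinases, or MSKs, encoded by Rps6ka5 and Rps6ka4, have the same layout. They lie in the nucleus, answer to both ERK and p38, and phosphorylate CREB and histone H3 at immediate early genes. The p70 kinases encoded by Rps6kb1 and Rps6kb2 have a single kinase domain, are switched on by mTORC1 and PDK1, and phosphorylate ribosomal protein S6. Arrays measure transcripts, and the activity of a kinase is set by phosphorylation that they do not read.

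Signals are on the log2 scale. Each array was given a floor at its 40th percentile, 4.59 log2 for CMT-93-PM1 and 4.69 for CMT-93, under which a probe set was taken as not measured. Log2 ratios are CMT-93-PM1 minus CMT-93. Where 1 array was at the floor, the ratio was taken against that floor and is a bound, written "at least". By these limits all 9 probe sets of the family were measured on at least 1 array. For an epithelial tumour line, 7 of 7 general epithelial markers on the array exceeded both floors, with Krt19, a keratin of simple epithelia, at 12.98 in CMT-93-PM1 and 12.72 in CMT-93. Of 8 intestinal epithelial markers, 5 were above the floor in each line, the brightest being Gpa33 at 7.92 in CMT-93-PM1 and 6.85 in CMT-93, while Cdx1, Vil1 and Lgals4 were at the floor in both. Some defining genes of possible host cells were at the floor in both lines, such as Ptprc of leukocytes, Pecam1 of endothelium, Col1a1 and Col3a1 of fibroblasts, and Scgb1a1 and Nkx2-1 of lung epithelium. By whole list, the markers above the floor were 5 of 10 in CMT-93-PM1 and 5 of 10 in CMT-93 for fibroblasts and mural cells, 3 of 8 and 3 of 8 for endothelium, 5 of 9 and 5 of 9 for leukocytes, and 5 of 9 and 6 of 9 for lung epithelium, in the same order of lines. These equal counts hide differences, named here after their values were seen. The endothelial genes Cdh5 (9.30 in CMT-93-PM1 and 4.21 in CMT-93, at least 24.4-fold higher) and Tek (3.43 in CMT-93-PM1 and 8.57 in CMT-93, at least 15.8-fold lower) ran in opposite directions. Of the leukocyte genes, Cd68 (7.05 in CMT-93-PM1 and 5.23 in CMT-93) was 3.53-fold higher and Csf1r (7.54 in CMT-93-PM1 and 6.42 in CMT-93) 2.17-fold higher. The other Csf1r probe sets above both floors were within 2-fold, at 1.72-fold and 1.01-fold higher. The part of possible host cells in the values below was not tested.

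Rps6ka6 encodes RSK4, the RSK that in mammalian cell lines is active with little dependence on growth factor stimulation. Its transcript was clear in CMT-93 and at the floor in CMT-93-PM1. The probe set 1429759_at read 3.20 log2 in CMT-93-PM1 and 9.45 in CMT-93. The transcript was thus at least 29.0-fold lower in the lung-recovered line, a log2 ratio of -4.86 against the floor. A second probe set, 1429760_at, was designed from the same source sequence and is not independent evidence of the gene. It read 4.03 in CMT-93-PM1 and 5.59 in CMT-93, at least 2-fold lower. Both probe sets thus had the lower value in CMT-93-PM1, below that array's floor, and the dimmer one gave a much smaller bound because its CMT-93 signal was close to the floor.

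**Figure D1:**
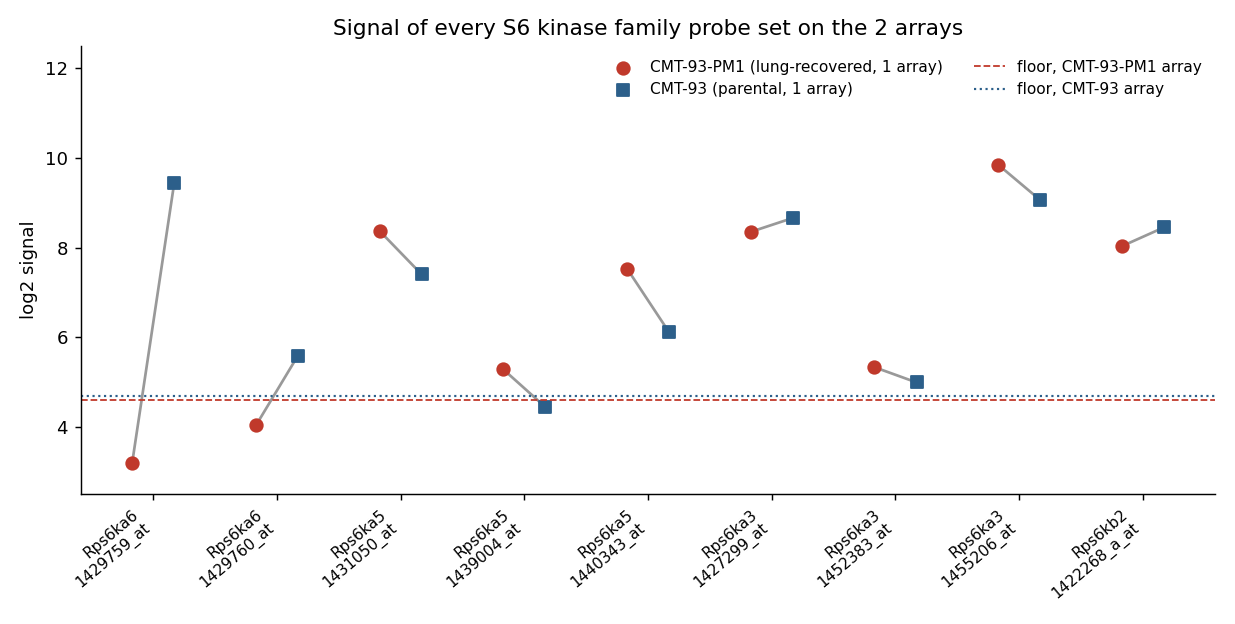
Log2 signal (y axis) of all 9 S6 kinase probe sets (x axis), with CMT-93-PM1 as circles left of CMT-93 as squares, 1 array each, and the floor of each array as a horizontal line. Both Rps6ka6 probe sets lie under the floor in CMT-93-PM1, all 3 Rps6ka5 probe sets are higher in CMT-93-PM1, and the Rps6ka3 probe sets run both ways.

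Rps6ka6 was the only 1 of the 4 measured family genes past 2-fold, and it was lower. Among all 13332 measured genes, 2.55% were lower by 2-fold or more and 4.42% were higher by that much. Counted by probe set, 2 of the 9 were lower by 2-fold or more and 1 was higher, beside 3.08% and 3.74% of 28110 measured probe sets. Over these genes the ratio of Rps6ka6 was undercut by 2 others, and 13329 genes had a higher ratio. In all, 304 genes were above the floor in CMT-93 and at the floor in CMT-93-PM1, and Rps6ka6 had the largest bound of them. The size of the bound follows the floor chosen, at -3.30 log2 with floors at the 60th percentile and -5.98 with floors at the 20th.

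**Figure D2:**
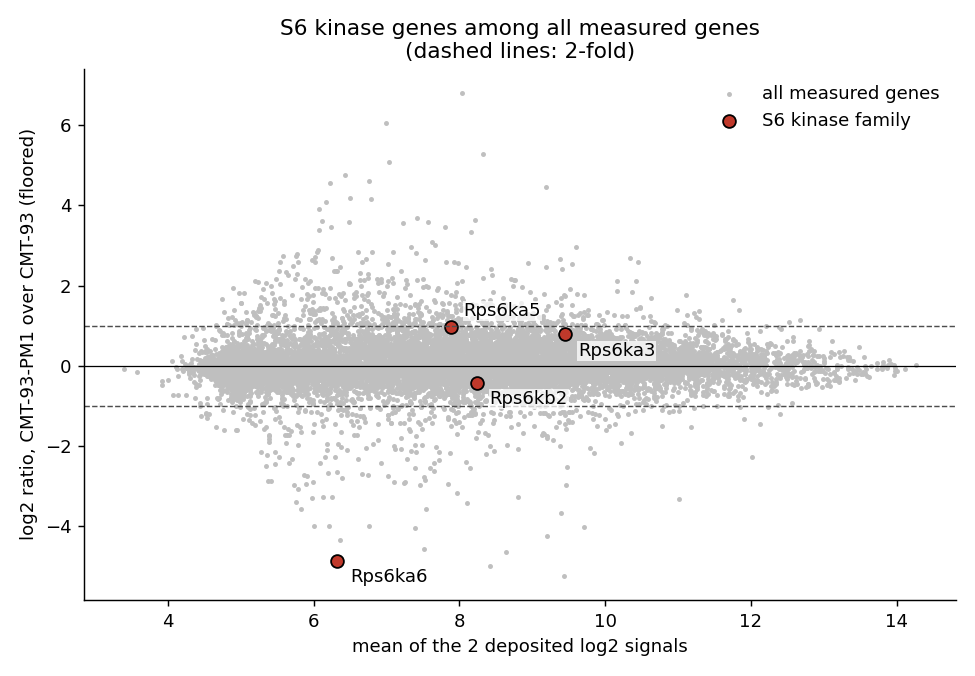
Log2 ratio of CMT-93-PM1 over CMT-93 (y axis, floored) against the mean of the deposited log2 signals (x axis) for 13332 measured genes, with the 4 S6 kinase genes marked and 2-fold shown by dashed lines. Rps6ka6 lies at -4.86 near the lower edge of the cloud, and the other members lie between -0.42 and 0.97.

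The genes nearest to Rps6ka6 in the plane of the 2 signals were Pde8b, Tek and Slc6a12, at Euclidean distances of 0.79, 0.91 and 1.06 log2 units. With 2 arrays, likeness means only a similar pair of signals. Pde8b, a cyclic AMP phosphodiesterase gene, read 3.79 in CMT-93-PM1 and 8.92 in CMT-93, at least 20.1-fold lower, and its other probe set was at least 13.5-fold lower. Tek, the angiopoietin receptor gene, read 3.43 in CMT-93-PM1 and 8.57 in CMT-93, at least 15.8-fold lower. Slc6a12, a betaine and GABA transporter gene, read 3.82 in CMT-93-PM1 and 8.59 in CMT-93, at least 16-fold lower.

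Rps6ka3 encodes RSK2, whose loss in humans causes Coffin-Lowry syndrome. Its 3 probe sets did not run the same way. The brightest, 1455206_at, read 9.85 in CMT-93-PM1 and 9.06 in CMT-93, 1.73-fold higher. The next, 1427299_at, read 8.35 in CMT-93-PM1 and 8.66 in CMT-93, 1.24-fold lower. The dimmest, 1452383_at, comes from the same source sequence as 1427299_at and read 5.33 in CMT-93-PM1 and 4.99 in CMT-93, 1.27-fold higher. The SD of the log2 ratio over these probe sets was 0.55, larger than that of 92.4% of the 5782 genes for which more than 1 probe set exceeded both floors, where the median was 0.17. None of the 3 passed 2-fold, and the median over them was 0.34. A single direction for the Rps6ka3 transcript is therefore not given by these arrays, and the transcripts that each probe set reads were not analysed here.

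Rps6ka5 encodes MSK1. All 3 of its probe sets were higher in the lung-recovered line, by amounts around 2-fold. The representative probe set 1431050_at, the brightest, read 8.37 in CMT-93-PM1 and 7.40 in CMT-93, 1.96-fold higher and just inside the 2-fold limit. The probe set 1440343_at read 7.53 in CMT-93-PM1 and 6.11 in CMT-93, 2.68-fold higher. The third, 1439004_at, read 5.28 in CMT-93-PM1 and lay at the floor in CMT-93 with 4.44, at least 1.51-fold higher. These probe sets were designed from 3 different source sequences. Their ratios were 0.97, 1.42 and, as a bound, 0.59, and the SD of the pair that exceeded both floors was 0.32. Of all measured genes, 95.3% had a lower ratio than the 0.97 of Rps6ka5. When the arrays were scaled to equal medians, that ratio became 1.07 and passed 2-fold.

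Rps6kb2, which encodes the p70 kinase S6K2, had 1 probe set, 1422268_a_at, with no second to set beside it. It read 8.03 in CMT-93-PM1 and 8.45 in CMT-93, 1.34-fold lower, with a log2 ratio of -0.42. A ratio lower than this was found for 11.9% of measured genes. A pair of kinase genes that carry the family name by sequence relation and are not members were read too. Rps6kc1 gave 6.17 in CMT-93-PM1 and 6.22 in CMT-93, and Rps6kl1 gave 4.35 in both, at the floor.

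In all, 3 start-site windows are shown, every one found for the 4 measured members, from Rps6ka6 and Rps6ka5. They are RefSeq windows on GRCm38.p6, from 250 bases before to 50 after an annotated start, and 2 of the 4 genes matched the table. Capitals mark CG dinucleotides, the sites at which mammalian DNA is methylated. The Rps6ka6 windows lie on the minus strand at chrX:111537910-111538209 (upstream) and chrX:111463448-111463747 (internal), and the Rps6ka5 window on the minus strand at chr12:100725071-100725370.
Rps6ka6 upstream start: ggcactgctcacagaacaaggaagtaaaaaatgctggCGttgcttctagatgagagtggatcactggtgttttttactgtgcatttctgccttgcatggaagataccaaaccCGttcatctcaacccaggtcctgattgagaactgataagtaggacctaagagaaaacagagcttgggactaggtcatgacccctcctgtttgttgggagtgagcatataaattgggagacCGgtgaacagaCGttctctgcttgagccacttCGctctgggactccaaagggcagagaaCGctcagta
Rps6ka6 internal start: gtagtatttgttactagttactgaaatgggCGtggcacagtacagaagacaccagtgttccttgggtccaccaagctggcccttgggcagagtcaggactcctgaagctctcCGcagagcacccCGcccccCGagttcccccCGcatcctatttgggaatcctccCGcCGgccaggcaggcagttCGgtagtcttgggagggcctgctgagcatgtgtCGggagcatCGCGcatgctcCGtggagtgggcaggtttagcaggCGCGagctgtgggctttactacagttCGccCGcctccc
Rps6ka5 start: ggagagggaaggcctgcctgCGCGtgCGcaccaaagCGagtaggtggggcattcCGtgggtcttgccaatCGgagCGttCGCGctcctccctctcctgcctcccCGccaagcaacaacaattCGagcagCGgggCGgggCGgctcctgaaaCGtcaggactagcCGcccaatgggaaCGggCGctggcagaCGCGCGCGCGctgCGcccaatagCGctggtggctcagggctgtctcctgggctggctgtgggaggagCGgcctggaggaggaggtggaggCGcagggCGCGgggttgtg

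The upstream Rps6ka6 window held 6 CG dinucleotides and was 48% G or C. As many or more CG were found in 56.4% of the 32851 windows of this length in the table, whose median was 7. The internal Rps6ka6 window held 16 (33% of windows held as many) and the Rps6ka5 window held 29 (12.9%). In all, 4 short motifs were searched on both strands, CG included. The TATA box letters TATAAA were in the upstream Rps6ka6 window, 33 bases before the start, and in 13.6% of all windows. The GC box GGGCGG, which overlaps CG, was found in the internal Rps6ka6 window, 3 times in the Rps6ka5 window and in 35.7% of all windows. The letters TGACG, part of the site bound by CREB, occurred in the Rps6ka5 window, in neither Rps6ka6 window and in 20.8% of all windows. Which start either culture used, and how its DNA was methylated, were not measured.

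The map position of each member was compared with the 5 nearest measured genes on either side, a comparison chosen after the members' values had been seen. Rps6ka6 lies on chromosome X, and its neighbours did not share its low signal as a block. Of the 10, 3 had ratios above 0 and 7 below, with a median of -0.15. The nearest measured genes on either side, Sh3bgrl (11.22 in CMT-93-PM1 and 11.26 in CMT-93) and Apool (8.55 in CMT-93-PM1 and 8.99 in CMT-93), were above the floor in both lines. A pair of genes in the stretch passed 2-fold in opposite directions. Dach2, a transcriptional cofactor gene, read 3.82 in CMT-93-PM1 and 6.74 in CMT-93, at least 4.44-fold lower. Diaph2, a formin gene and the next measured gene along the map, read 9.33 in CMT-93-PM1 and 6.86 in CMT-93, 5.54-fold higher. Over the other 378 measured genes of chromosome X the median ratio was -0.03.

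Rps6ka5 lies on chromosome 12, where ratios were raised more widely. Of its 10 neighbours, 7 had ratios above 0 and 3 below, with a median of 0.41, while 49.2% of all measured genes were above 0. Dglucy (5.89 in CMT-93-PM1 and 4.98 in CMT-93) and Ccdc88c (6.61 in CMT-93-PM1 and 5.47 in CMT-93), the next measured genes on 1 side, were 1.88-fold and 2.2-fold higher. Ttc7b, on the other side, read 5.46 in CMT-93-PM1 and 5.93 in CMT-93. Over the other 453 measured genes of the chromosome the median was 0.27, with 8.61% higher by 2-fold or more and 0.442% lower by that much. For all measured genes the median was 0, with 4.42% higher and 2.55% lower by that much. The part of this chromosome-wide shift in the Rps6ka5 ratio was not tested. The neighbours of Rps6ka3 (X) and of Rps6kb2 (chromosome 19) had medians of -0.02 and 0.

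**Figure D3:**
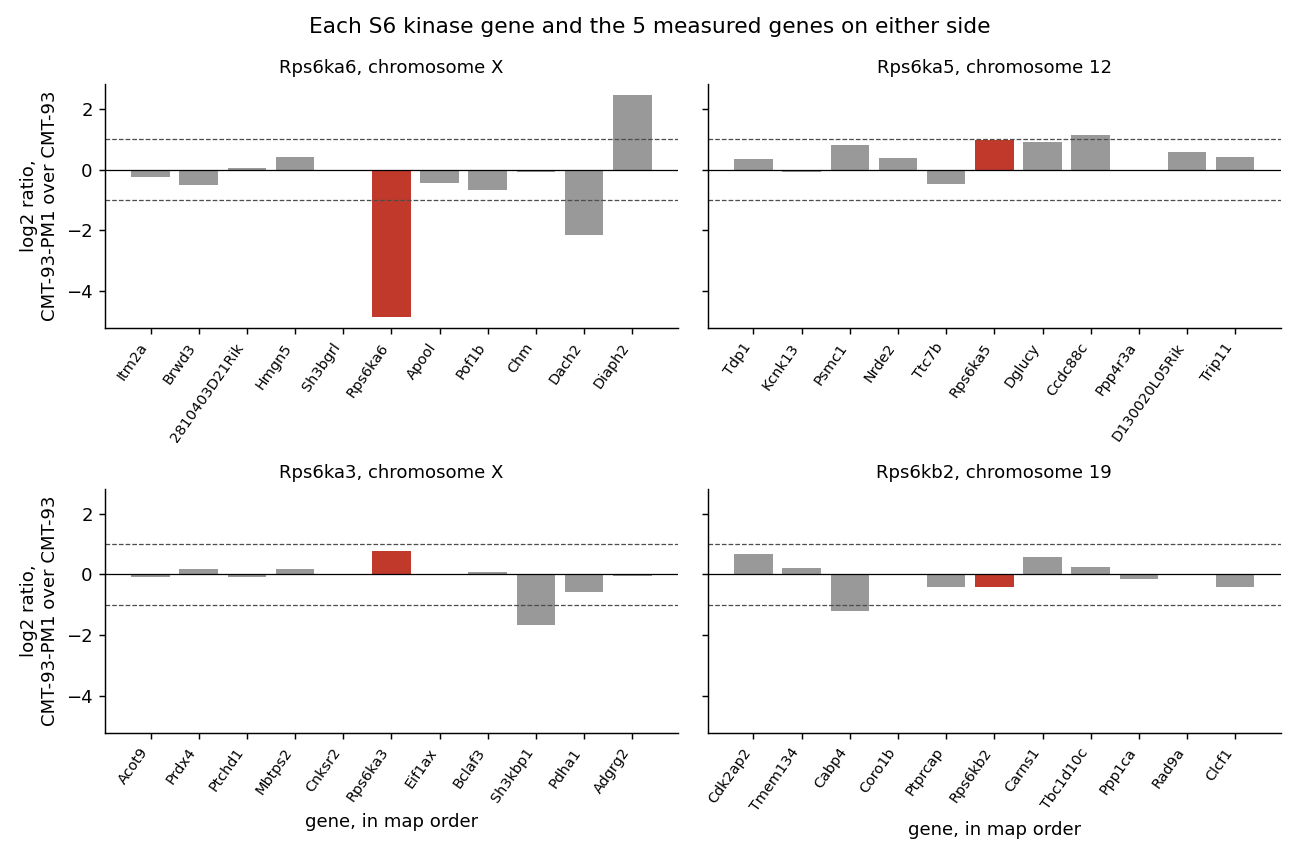
Log2 ratio of CMT-93-PM1 over CMT-93 (y axis, floored) for each S6 kinase gene (coloured bar) and the 5 measured genes on either side in map order (grey bars), with 2-fold as dashed lines. Rps6ka6 stands at -4.86 beside neighbours within 2-fold except Dach2 and Diaph2, and 7 of the 10 neighbours of Rps6ka5 are above 0.

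Upstream of the RSKs and MSKs, 17 of 22 listed genes of the ERK and p38 cascade were named on the array and all 17 were measured. Of them 1 was at least 2-fold higher and 0 lower, or 5.88% past 2-fold beside 6.97% of all measured genes. The exception was Mapk13, which encodes p38 delta and read 9.72 in CMT-93-PM1 and 7.74 in CMT-93, 3.94-fold higher. The brightest members were close to equal, with Nras at 10.75 in CMT-93-PM1 and 10.57 in CMT-93, and Pea15a, an ERK- and RSK-binding scaffold gene, at 10.59 in CMT-93-PM1 and 10.53 in CMT-93. The list median was -0.07, beside 0 for all measured genes. Chosen after their values were seen, the ERK kinase gene Map2k1 read 10.43 in CMT-93-PM1 and 10.55 in CMT-93. The other ERK kinase gene, Map2k2, read 9.29 in CMT-93-PM1 and 10.05 in CMT-93, 1.69-fold lower. Its ratio of -0.76 was the lowest of the list, where 6 ratios were above 0 and 11 below. The p38 alpha gene Mapk14, whose product activates MSK1 and which was chosen in the same way, read 9.51 in CMT-93-PM1 and 9.58 in CMT-93.

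The PI3K, PDK1 and mTORC1 list had 20 measured genes and 0 past 2-fold in either direction. It holds activators of the p70 kinases and also inhibitors of the axis, such as Tsc1, Tsc2 and Deptor. Ratios in the list ran from -0.73 to 0.82 with a median of 0.19, 13 above 0 and 6 below. These counts mix activators and inhibitors and give no direction for the axis. Rheb, the GTPase that switches on mTORC1, read 12.69 in CMT-93-PM1 and 12.59 in CMT-93. Rragc, a Rag GTPase that brings mTORC1 to the lysosome, read 10.97 in CMT-93-PM1 and 11.04 in CMT-93. Pdpk1, the gene of PDK1 and chosen after its value was seen, read 10.32 in CMT-93-PM1 and 9.95 in CMT-93, 1.29-fold higher.

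Among genes whose products the family phosphorylates, 27 were measured, of which 1 was higher and 1 lower past 2-fold, or 7.41% beside 6.97% of all measured genes. Irs1, an insulin receptor adaptor gene whose product S6 kinases phosphorylate in feedback, read 11.24 in CMT-93-PM1 and 9.99 in CMT-93, 2.38-fold higher. Mitf, a transcription factor gene, read 4.36 in CMT-93-PM1 and 6.42 in CMT-93, at least 3.56-fold lower, while its other probe set was at the floor in both. The brightest members were Hmgn1, a nucleosome-binding MSK substrate gene (13.43 in CMT-93-PM1 and 13.28 in CMT-93), and Ybx1 (12.06 in CMT-93-PM1 and 12.08 in CMT-93). Their median ratio was 0.12, with 18 above 0 and 9 below. The namesake substrate gene Rps6, chosen after its value was seen, read 8.89 in CMT-93-PM1 and 9.30 in CMT-93, 1.33-fold lower. Its other probe set was at the floor in both, and ribosomal protein genes have processed copies that can share signal. The CREB gene Creb1, chosen in the same way, read 9.17 in CMT-93-PM1 and 8.66 in CMT-93.

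Immediate early genes, transcribed within minutes of ERK or p38 activation and among the genes at which MSKs act, held more genes past 2-fold than the other lists. Of 22 measured, 4 were at least 2-fold higher and 0 lower, or 18.2% beside 6.97% of all measured genes. The zinc finger factor gene Egr1 read 11.08 in CMT-93-PM1 and 8.12 in CMT-93, 7.78-fold higher. Fos, of the AP-1 factor, read 9.79 in CMT-93-PM1 and 7.63 in CMT-93, 4.47-fold higher. The nuclear receptor gene Nr4a1, a known MSK-dependent gene in mouse cells, read 9.24 in CMT-93-PM1 and 7.83 in CMT-93, 2.66-fold higher. Jun was 2.03-fold higher, at 10.78 in CMT-93-PM1 and 9.76 in CMT-93, and 1.77-fold by its dimmer probe set. Jun did not pass 2-fold after quantile normalization, after lowess or as the median over probe sets, which left 3 genes of the list past it.

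Other immediate early genes stayed within 2-fold. The brightest were Jund (12.06 in CMT-93-PM1 and 12.14 in CMT-93) and Ier3 (10.97 in CMT-93-PM1 and 11.54 in CMT-93, 1.48-fold lower). The median of the list was 0.25, with 14 ratios above 0 and 8 below, and Fosb and Egr2 were at the floor in both lines. Egr1, Fos and Nr4a1 had 1 probe set each. These transcripts also respond to serum and handling, and the sources used here do not give the time since the last change of medium, whose part was not tested.

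**Figure D4:**
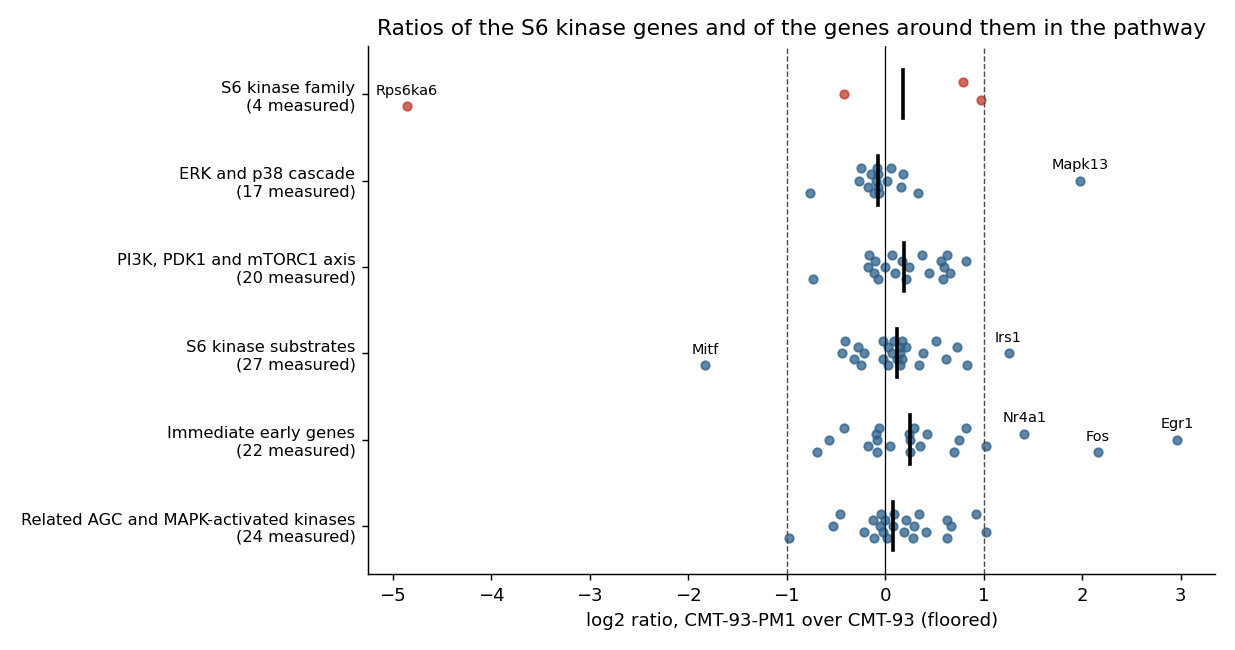
Log2 ratios of CMT-93-PM1 over CMT-93 (x axis, floored) for the measured genes of the S6 kinase family and of 5 lists around it (rows), 1 point a gene, with list medians as black bars and 2-fold as dashed lines. List medians lie between -0.07 and 0.25, while Rps6ka6, Mitf, Mapk13, Irs1, Nr4a1, Fos and Egr1 lie outside 2-fold, with Jun and Lats2 just past it at 1.02.

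Kinases related to the family by their AGC kinase domain, or activated by the same MAP kinases, had 24 measured genes. Past 2-fold, 1 was higher and 0 were lower, or 4.17% beside 6.97% of all measured genes. The median ratio was 0.08 and the range ran from -0.98 to 1.02. The Hippo pathway kinase gene Lats2 read 8.18 in CMT-93-PM1 and 7.16 in CMT-93, 2.03-fold higher. Its other probe sets above the floor were 2.58-fold, 1.82-fold and 1.39-fold higher, and 2 more were at the floor in both lines. After quantile normalization or lowess, Lats2 was within 2-fold, and the Hippo-related kinase gene Stk38l (8.48 in CMT-93-PM1 and 9.46 in CMT-93, chosen after its value was seen) was the 1 gene past it, lower with a ratio of -1.06. The brightest were Sgk1, a serum- and glucocorticoid-induced kinase gene (12.11 in CMT-93-PM1 and 12.57 in CMT-93), and the protein kinase A subunit gene Prkaca (12.05 in CMT-93-PM1 and 12.17 in CMT-93). None of the 5 lists set around the family held a measured gene with a ratio as low as that of Rps6ka6. Only 2 of all 13332 measured genes had a lower ratio, and the family was selected on this low signal. The absence therefore says little about the lists.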

How the data were processed

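Total RNA, 6 µg per array per the labels' protocols, was made into biotin-labelled cRNA for Affymetrix arrays. The deposited values are log2 signals per probe set with 2 decimals. Base 2 was read from the values, since it puts the brightest signals at 19893 in CMT-93-PM1 and 19484 in CMT-93, which a scanner can reach. MAS5 appears in the submitters' processing notes without a stated role, and how the arrays were scaled is not stated in the labels. The values were used as deposited, and 1 array a line limits their precision.

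Of 45037 probe sets, the platform annotation lists 35877, of which 34945 have 1 symbol and 932 several. The 9160 others are unnamed here. Symbols were updated by Entrez identifier (34741 matched, GRCm38.p6). Each gene took the values of its brightest probe set, by the mean of both arrays. Each array was floored at its 40th percentile, which left 13332 measured genes, and a difference was counted at 2-fold or more. There was no test. Python 3.11.15, pandas 2.3.3 and statsmodels 0.14.6 were used, and the scripts were checked on simulated arrays.

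The members and lists were chosen with earlier results of these data known. Named genes are all members with every probe set, up to 4 of each list past 2-fold (largest first) with its 2 brightest, the brightest marker of each cell type, and the 3 genes nearest to Rps6ka6 in signal. By the mean of both arrays, the brightest markers of the other cell types were Des of fibroblast and mural cells (6.23 in CMT-93-PM1 and 6.78 in CMT-93), Esam of endothelium (8.70 in CMT-93-PM1 and 8.93 in CMT-93), Csf1r of leukocytes (7.54 in CMT-93-PM1 and 6.42 in CMT-93) and Aqp5 of lung epithelium (10.01 in CMT-93-PM1 and 10.68 in CMT-93). Alternatives were 3 scalings, 3 floors and 2 choices of probe set.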

Additional observations from a re-analysis of the deposited data

How the results depend on the processing

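Every member's ratio and each list's count past 2-fold were compared under 8 alternatives: equal medians, quantile normalization, lowess (span 0.3), a lower floor (20th percentile), a higher floor (60th), no floor, the median over probe sets, and no probe sets whose ID ends in _s_at, _x_at or _a_at. Of 79 values, 69 stayed within 1.5 times (counts) or within 0.17 log2, the median SD between probe sets of a gene (ratios), and no member's ratio changed sign. This total says little, because several ratios could not pass that limit. The representative probe sets of Rps6ka3, Rps6ka5 and Rps6kb2 exceeded every floor tried. Equal medians moved each member's ratio by 0.10 only. Those of Rps6ka3, Rps6ka5 and Rps6ka6 have no suffix to drop. The Rps6ka6 ratio moved past the limit under 4 of the 8 alternatives. The Rps6ka6 ratio was -4.86, and it was -5.98 with the lower floor, -3.30 with the higher one, -6.25 with no floor and -2.93 as the median over probe sets. The Rps6ka3 ratio was 0.34 as the median over probe sets. Counts compare totals only: after quantile normalization or lowess the related kinases had 1 gene lower (Stk38l) and 0 higher in place of Lats2, and Jun dropped out of the immediate early genes, as it did in the median over probe sets, leaving 3. With equal medians, which shifted the median of all genes by 0.10, 2 family genes passed 2-fold, Rps6ka6 and Rps6ka5, and 2 of the related kinases did. None of the related kinases (0) passed as the median over probe sets or without the suffixed probe sets, 1 of which represents Lats2. With the higher floor, 1 substrate gene passed, and Mitf lost its call. Rps6kb2 has no value without suffixed probe sets, since its only probe set is one of them. No paired analysis was possible because each line had 1 array. Dim probe sets are limited by the floor, and no background correction or detection call could be varied from the table used here.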
